A study of Mus musculus with 6 samples.

Results

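The 9 enzymes described here carry out most of the steps from squalene to cholesterol. They were picked by gene symbol from the 55341 genes of the count tables, because their measured values were higher with GSK-126 than with DMSO in these same libraries. That difference is therefore given below as a description, with no test. The cells were cerebellar granule neurons (CGNs) of CD-1 IGS mice, grown from cerebella of pooled litters dissected at P6 to P8 (P, postnatal day) and treated with the antimitotic AraC, which acts on dividing cells. GSK-126 blocks EZH2, the enzyme that writes the repressive histone mark H3K27me3, and the control cultures received the solvent DMSO. The agent was added once at DIV3 (DIV, days in vitro) and RNA was collected at DIV5 per the study's methods, whereas the labels give day 3 and cerebellum as the tissue. There were 3 libraries of each group, each a biological replicate, and the DIV3 experiment asked whether raised expression of early genes could hold back that of late genes, by adding the inhibitor later. The dose used at DIV3 is not given in the sources used here, both sexes were pooled, and the sources name no engineered allele in either group.

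Cholesterol is built from acetyl-CoA in a linear route. The mevalonate arm ends in farnesyl diphosphate, squalene synthase joins a pair of these molecules into squalene, and the remaining enzymes, most of them in the endoplasmic reticulum membrane, close the rings, strip off methyl groups and move or remove double bonds. The brain makes its own cholesterol because the blood-brain barrier keeps lipoproteins of the blood out, and much of what neurons use comes from astrocytes. Transcription of the route is controlled together by SREBP2, a membrane-bound factor that is released when sterols in the endoplasmic reticulum are low, and SREBP2 is known to act at promoters with NF-Y, which binds CCAAT boxes, and with SP1, which binds GC boxes.

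Expression is given as CPM, the counts of a gene scaled to a common library total with TMM factors. A mean is followed by ± the SD over the 3 libraries of its group, and SE is the standard error of a log2 fold change. Counts on genes ranged from 7407189 to 13092763 per library, TMM factors from 0.953 to 1.02, and the mitochondrial share from 1.75% to 2.78%. The cultures held RNA of several cell types. The 10 granule neuron markers summed to 3620, 5640 and 4120 CPM in DMSO replicates 1, 2 and 3 and to 2950, 4430 and 3190 CPM in the GSK-126 libraries. The 10 astroglia markers summed to 8450, 2870 and 4770 CPM with DMSO and to 8760, 2730 and 4720 CPM with GSK-126. Replicate 2 of both groups thus held the fewest astroglial and the most granule neuron transcripts. In such bulk RNA, fewer cells of a type and less RNA per cell cannot be told apart.

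Libraries with the same replicate number deviated together from their group means. The correlation of these deviations over all genes tested was 0.613, 0.691 and 0.539 for numbers 1, 2 and 3, and 0.0202 or less between libraries of different number, so the libraries are treated as 3 pairs of cultures. In the fit without pairing, edgeR's quasi-likelihood test called 0 of the 16729 genes tested (0% called, Benjamini-Hochberg adjusted p), although 665 had an unadjusted p under 0.05. With the replicate number as a block, 561 genes were called higher (3.35% called) and 851 lower (5.09% called) with GSK-126. All 9 enzymes passed the filter on low counts, with 287 to 4442 counts per library, and all 9 were among the 561, which the way they were chosen fixes.

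In each of the 9 genes every GSK-126 library lay above every DMSO library, which was so for 790 of all genes tested (4.72%). This is a count of separated libraries, not of calls by a test. The ratio of the group means ran from 1.26 to 2.13, with a median of 1.61. The median log2 fold change of the 9 was 0.69, against -0.00706 over all genes tested. Together, the enzymes took 976, 992 and 812 CPM with DMSO and 1500, 1650 and 1350 CPM with GSK-126, that is 0.0806% to 0.0991% and 0.136% to 0.166% of the counts on genes.

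**Figure D1:**
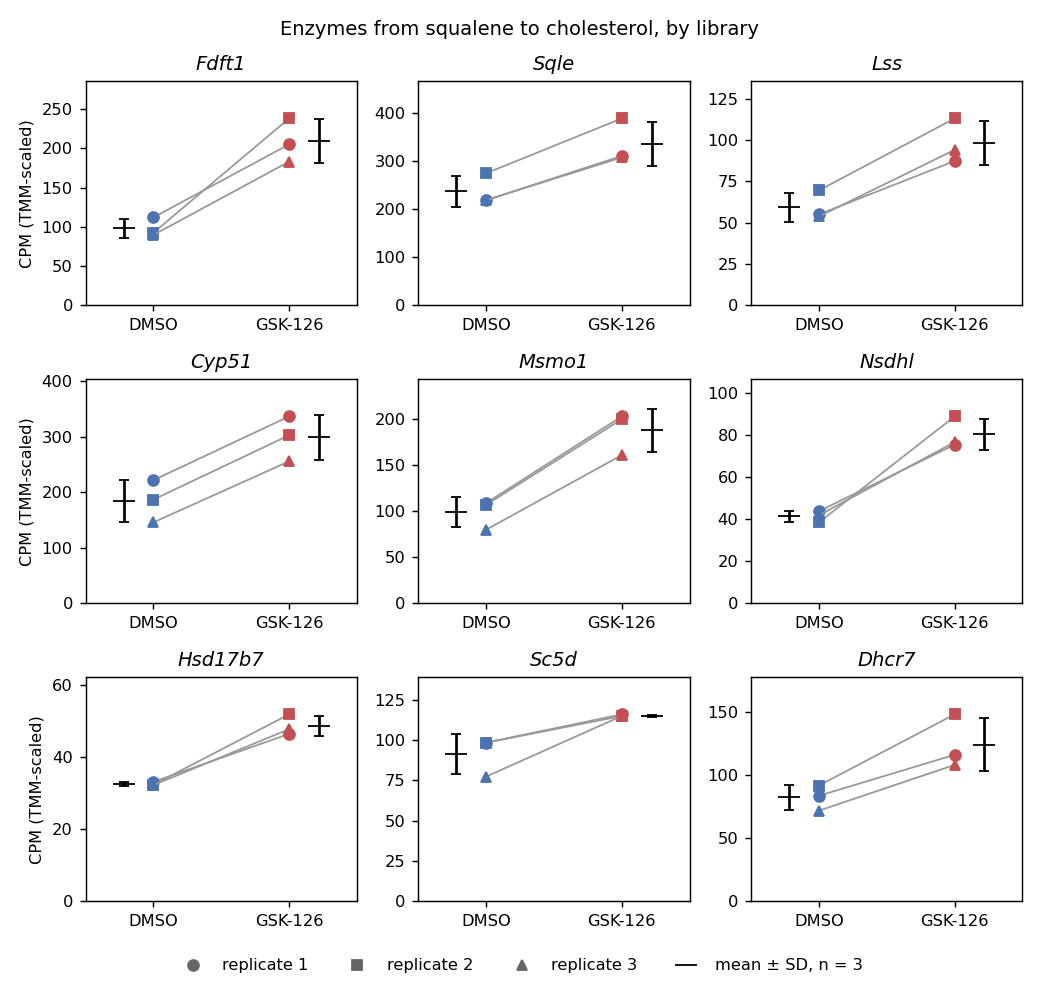
CPM (TMM-scaled, linear axes from 0) of each of the 9 enzymes in the 3 DMSO and 3 GSK-126 libraries, with lines joining libraries of the same replicate number and black marks for the mean ± SD (n = 3). Every line climbs from left to right, and as a ratio of means the climb is largest for Fdft1, 2.13, and smallest for Sc5d, 1.26.

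Squalene synthase and the enzymes that follow it up to lanosterol came out unequal. Fdft1 (chr14:63145150-63179578, GRCm38, minus strand) encodes squalene synthase, the point at which farnesyl diphosphate is committed to sterols. Its transcripts were at 112, 92.5 and 89.7 CPM in DMSO replicates 1, 2 and 3 and at 205, 238 and 183 CPM in the GSK-126 libraries. The means were 98.0 ± 12 and 209 ± 27.7 CPM and the log2 fold change 1.09 (SE 0.15, and 0.09 with the block). This was the largest difference of the 9, and the lowest GSK-126 library stood well clear of the highest DMSO library. Of the exons of Fdft1, 774 bp overlap Ctsb on the opposite strand, and the strand setting of the counting is not given in the sources used here, so reads there cannot be assigned with certainty.

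Sqle (chr15:59315077-59331192, plus strand) encodes squalene epoxidase, a rate-limiting and strongly regulated step. It was at 219, 275 and 219 CPM with DMSO and at 311, 389 and 308 CPM with GSK-126, or 238 ± 32.2 and 336 ± 46.1 CPM. Replicate 2 was the highest of its group in both, and the log2 difference within a pair was 0.51, 0.50 and 0.49. The spread of these over pairs, an SD of 0.0088, was the smallest of the 9. The log2 fold change of 0.50 had an SE of 0.16 without the block and 0.07 with it.

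Lss (chr10:76531588-76557138, plus strand) encodes lanosterol synthase, which folds squalene epoxide into the sterol ring system. It was at 55, 69.5 and 53.8 CPM with DMSO and at 87.3, 113 and 94.0 CPM with GSK-126. The mean went from 59.4 ± 8.71 to 98.1 ± 13.3 CPM, a log2 fold change of 0.72 (SE 0.15). As for Sqle, replicate 2 was highest in either group. An antisense gene, 4930483K19Rik, shares 381 bp with its exons.

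The methyl groups of lanosterol are removed by the next 4 members. Cyp51 (chr5:4081145-4104746, minus strand) encodes lanosterol 14-alpha-demethylase, the cytochrome P450 that azole drugs inhibit in fungi. It was at 222, 187 and 146 CPM with DMSO and at 337, 303 and 256 CPM with GSK-126, or 185 ± 37.9 and 299 ± 40.3 CPM. The spread between DMSO libraries, a coefficient of variation of 20.5%, was the widest of the 9, with replicate 1 highest and replicate 3 lowest in both groups. Its log2 fold change was 0.69 (SE 0.18, and 0.70 with 0.07 with the block), and 166 bp of its exons overlap Akap9 on the opposite strand.

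Msmo1, Nsdhl and Hsd17b7 encode the enzymes that take off the methyl groups at carbon 4. Msmo1 (chr8:64718139-64733792, minus strand), the methyl oxidase that starts each round, was at 109, 107 and 80.0 CPM with DMSO and at 203, 200 and 161 CPM with GSK-126. Means of 98.8 ± 16.3 and 188 ± 23.5 CPM gave a log2 fold change of 0.93 (SE 0.16). In both groups replicate 3 was the low library.

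Nsdhl (chrX:72918557-72958514, plus strand) encodes the dehydrogenase that decarboxylates the oxidised intermediate. It was at 43.7, 38.4 and 41.8 CPM with DMSO and at 75.3, 88.7 and 76.5 CPM with GSK-126, or 41.3 ± 2.69 and 80.2 ± 7.42 CPM, a log2 fold change of 0.96 (SE 0.12). Replicate 2 was the lowest DMSO library and the highest GSK-126 library, so the pair difference of 1.21 in replicate 2 exceeded the 0.79 and 0.87 of the others. The pair difference of Fdft1 was also largest in replicate 2, at 1.36 against 0.88 and 1.03.

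Hsd17b7 (chr1:169949535-169969241, minus strand) encodes the reductase that closes each round of demethylation. The DMSO libraries were close together, at 33.1, 32.3 and 32.2 CPM, and the GSK-126 libraries were at 46.4, 51.8 and 47.7 CPM. The log2 fold change was 0.58 (SE 0.12), from 32.5 ± 0.521 to 48.6 ± 2.83 CPM. With 287 to 612 counts per library, it was the least deeply counted of the 9.

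The last members work on the double bonds of the sterol rings, and their differences were in the lower part of the range. Sc5d (chr9:42251595-42264256, minus strand), the desaturase that makes 7-dehydrocholesterol, was at 98.5, 98.4 and 77.4 CPM with DMSO and at 116, 115 and 115 CPM with GSK-126. The means were 91.4 ± 12.2 and 115 ± 0.544 CPM, and its log2 fold change of 0.33 (SE 0.13) was the smallest of the 9. The pair differences were 0.23, 0.23 and 0.57, and without DMSO replicate 3, its low library, the log2 fold change was 0.23.

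Dhcr7 (chr7:143823145-143848410, plus strand) encodes 7-dehydrocholesterol reductase, the final step and the enzyme deficient in Smith-Lemli-Opitz syndrome. It was at 83.6, 91.7 and 71.8 CPM with DMSO and at 116, 148 and 108 CPM with GSK-126, or 82.4 ± 10 and 124 ± 21 CPM. The log2 fold change was 0.59 (SE 0.16), with replicate 2 highest and replicate 3 lowest in either group.

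Seen by pair, all 9 enzymes were higher with GSK-126 in each of the 3 pairs. Their median log2 difference was 0.60 in pair 1, 0.69 in pair 2 and 0.81 in pair 3 (SD 0.102), while that of all genes tested lay between -0.0264 and 0.000182. The 9 differed more from each other, with an SD of 0.243 over their log2 fold changes, than the pairs differed within a typical gene. Within a gene, the SD over pairs had a median of 0.104 but reached 0.194 for Sc5d, 0.223 for Nsdhl and 0.248 for Fdft1. Sc5d was lowest in pairs 1 and 2 and Sqle in pair 3, and Msmo1 was highest in pair 1 and Fdft1 in pairs 2 and 3. The smallest pair difference of Fdft1, 0.88, exceeded the largest of Sqle, 0.51. In the fit with the block, the median log2 fold change of the 9 was 0.70 with all pairs. Dropping pair 1 from this fit gave a median of 0.77, dropping pair 2 gave 0.71 and dropping pair 3 gave 0.65. Whether the astroglial share of a pair had a part in these values was not tested.

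**Figure D2:**
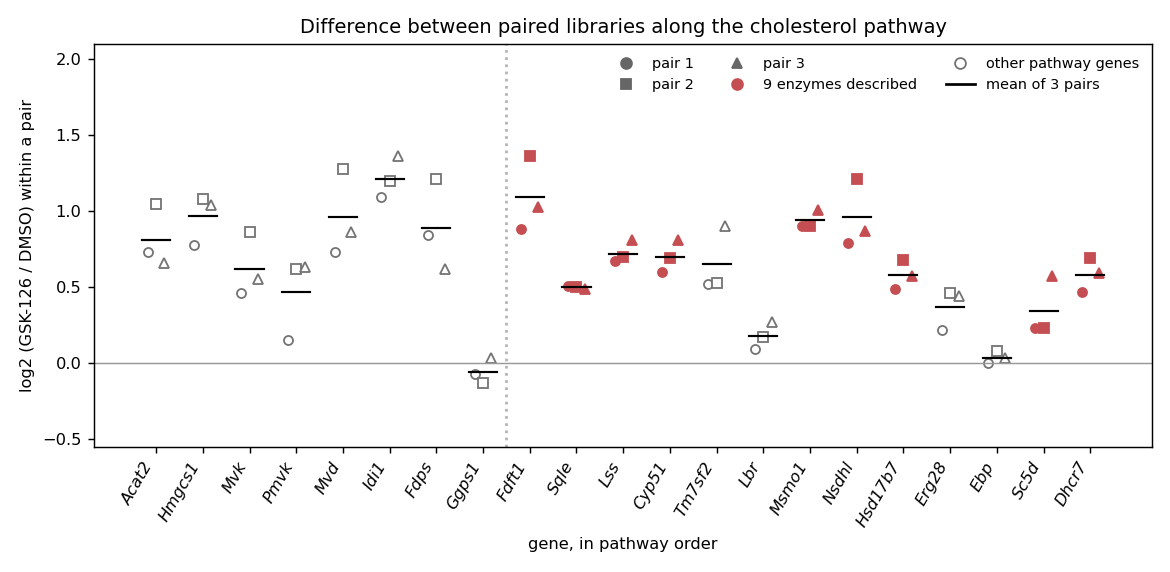
Log2 ratio of GSK-126 to DMSO CPM within each of the 3 pairs (vertical axis) for genes of the cholesterol route in pathway order (horizontal axis), with the 9 enzymes in filled red, other pathway genes in open grey, black lines at the mean of the pairs and a dotted line where squalene synthesis begins. All points of the 9 enzymes lie above 0, between 0.23 and 1.36, while Ebp and Ggps1 have points on both sides of 0 or at it.

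The 9 transcripts can be ordered per length, in CPM per kb of the principal transcript of GENCODE M21. With DMSO, Sqle was the most abundant at 86.2 CPM per kb, followed by Msmo1 at 48.3, Cyp51 at 47.1, Dhcr7 at 29.3, Fdft1 at 26.5, Nsdhl and Sc5d at 19.1 each, Lss at 12.7 and Hsd17b7 at 7.05. The libraries of Msmo1 and Cyp51 overlapped, as did those of Dhcr7 and Fdft1 and those of Nsdhl and Sc5d, so those neighbours were not set apart by their spread. The other neighbours did not overlap. With GSK-126, the level of Fdft1 was 56.4 CPM per kb against 44.1 for Dhcr7, with libraries still overlapping, and Nsdhl at 37.0 stood clear of Sc5d at 24.1. The order depends on the transcript taken as the length. Over the union of all annotated exons, Sqle at 42.9 and Cyp51 at 41.9 CPM per kb with DMSO were nearly level. Msmo1, at 16.1, then lay below Fdft1 at 23.2 and Sc5d at 18.8, and Lss, at 5.51, below Hsd17b7 at 6.37.

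**Figure D3:**
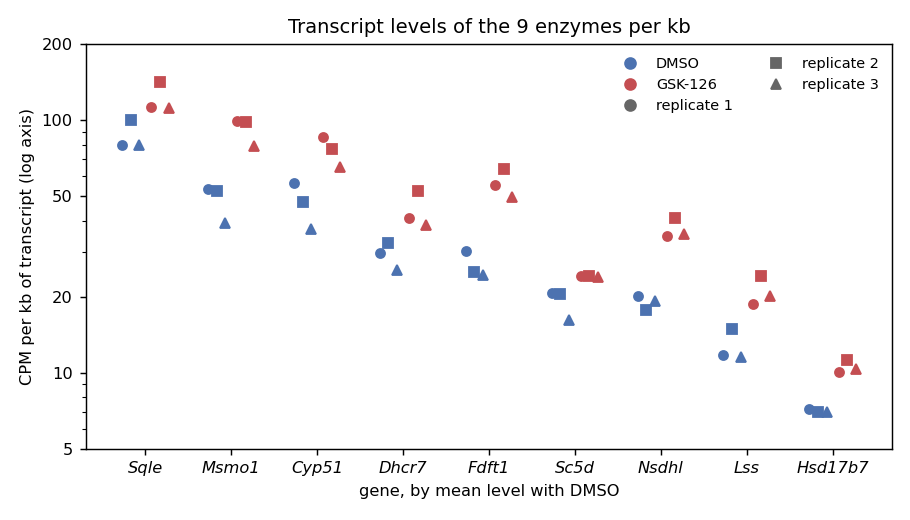
CPM per kb of principal transcript (log axis) of the 9 enzymes in each DMSO (blue) and GSK-126 (red) library, ordered by the mean with DMSO, with marker shape for the replicate number. Levels span from 7.05 CPM per kb for Hsd17b7 to 86.2 for Sqle with DMSO, and Fdft1 and Nsdhl shift upward more than their neighbours Dhcr7 and Sc5d.

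The numbered cultures can also be compared with each other, whatever the agent. With edgeR's quasi-likelihood F test of the replicate number in the fit with group and replicate, 5 of the 9 enzymes passed (Benjamini-Hochberg adjusted p under 0.05), namely Cyp51, Msmo1, Sqle, Dhcr7 and Lss, against 5259 of all genes tested (31.4% called). Fdft1, Sc5d, Hsd17b7 and Nsdhl did not pass. DESeq2's likelihood ratio test called 4, all of these but Lss, against 3596 of all genes (21.5%). Without the group in the fit, edgeR called 0 of the 9, against 1727 of all genes (10.3%). The test divides by the spread left within pairs, which also enters the paired difference the 9 were chosen for, so these counts are a description and support nothing about the enzymes.

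The cultures did not order these enzymes alike. Sqle, Lss and Dhcr7 were highest in replicate 2 of either group, whereas Cyp51 and, by a small margin, Msmo1 were highest in replicate 1, and replicate 3 was lowest for Cyp51, Msmo1 and Dhcr7. Astroglial markers, at 2870 and 2730 CPM in replicate 2 and 8450 and 8760 CPM in replicate 1, moved between cultures as well, with 10 of 10 called in this test, and their part in the difference between cultures was not tested. Between the libraries of a pair, the astroglial sum moved from 8450 to 8760, from 2870 to 2730 and from 4770 to 4720 CPM, and 1 of its 10 markers, S100b, was called higher with the block.

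**Figure D4:**
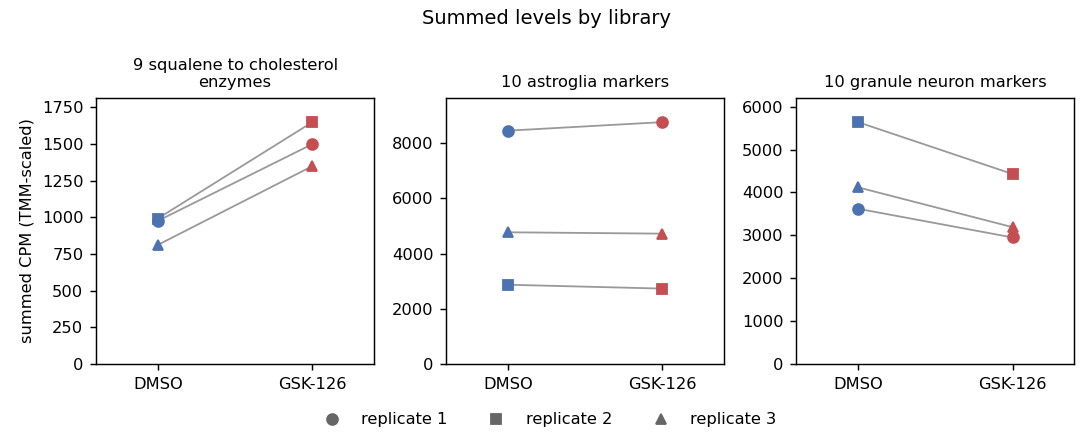
Summed CPM (TMM-scaled, linear axes from 0) of the 9 enzymes, of 10 astroglia markers and of 10 granule neuron markers in each library, with lines joining libraries of the same replicate number. The enzymes climb in every pair, from between 812 and 992 to between 1350 and 1650 CPM, the astroglial lines are nearly flat but far apart, and the granule neuron lines fall.

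Other cell-type markers moved with GSK-126 to differing extents in the fit with the block. Of the 10 granule neuron markers 5 fell (Gabra6, Etv1, Rbfox3, Neurod1 and Zic1) and Tubb3 rose, with a list median of -0.26, and 3 of 6 GABAergic markers fell (Gad1, Gad2 and Slc32a1). Of 8 microglial markers tested 3 rose (C1qa, C1qb and Tyrobp), as did 3 of 8 vascular and meningeal markers (Pdgfrb, Acta2 and Col1a2). In pairs 1, 2 and 3 the microglial sum went from 438, 200 and 374 CPM to 541, 296 and 438 CPM. The vascular and meningeal sum went from 5110, 5940 and 7110 CPM to 6540, 6400 and 7830 CPM, so both were higher with GSK-126 in every pair. The oligodendrocyte list had 1 of 10 called higher, Mbp, and the precursor and cycling list 1 of 5, Pcna. By pair, the oligodendrocyte sum went from 900, 517 and 722 CPM to 907, 604 and 807 CPM. The precursor and cycling sum went from 353, 246 and 295 CPM to 400, 257 and 323 CPM. Outside the granule neuron list these were 12 calls, and 6 without pair 2. Of the markers listed, Atoh1, Gli1 and Cldn5 were too low to test. No marker of these lists was at 0 in all libraries, none passed without the block, and their part in the difference of the sterol enzymes was not tested.

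Not every enzyme of the same stretch of the route moved with the 9. Of the 5 other late sterol genes 3 were called higher with the block and 2 were not, with a median log2 fold change of 0.37 in that fit. Tm7sf2, a sterol C14 reductase, rose by 0.64 (adjusted p = 0.0047 with the block, edgeR), and Erg28, a scaffold of the C4 demethylation complex, by 0.37 (0.022). The call of Erg28 was lost in block fits without pair 2 (adjusted p = 0.133) or pair 3 (0.078) and with DESeq2 and the block (0.0615). Lbr, a nuclear envelope protein with the same reductase activity as Tm7sf2, was at 42.8 ± 6.23 and 48.2 ± 5.15 CPM, and Ebp, the sterol isomerase that precedes Sc5d, at 35.1 ± 5.06 and 36.0 ± 5.13 CPM, and neither passed. With the block, the log2 fold change was 0.17 for Lbr (SE 0.1) and 0.03 for Ebp (SE 0.11). Tm7sf2 shares 532 bases with Vps51 and Lbr 440 bases with Dnah14, both at 100% identity. Reads there cannot be assigned with certainty.

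In the mevalonate arm, 7 of 9 genes were called higher with the block, with a median log2 fold change of 0.82 in that fit. Idi1, which makes dimethylallyl diphosphate, rose by 1.21 on the log2 scale, from 33.1 ± 4.49 to 76.5 ± 7.31 CPM, with the smallest adjusted p without the block, 0.386, and 1.54e-07 with it (edgeR). Hmgcs1, the synthase of HMG-CoA, rose by 0.97 (adjusted p = 9.35e-08, edgeR with the block). Mvd (0.96), Acat2 (0.82), Mvk (0.62) and Pmvk (0.47) rose as well in log2 fold change with the block, though Pmvk was no longer called without pair 2 (adjusted p = 0.189, edgeR) or pair 3 (0.155), or with DESeq2 and the block (0.102). Ggps1, which sends farnesyl diphosphate to geranylgeranylation instead, was at 47.6 ± 6.81 and 45.6 ± 5.05 CPM and did not pass. Fdps, the synthase of farnesyl diphosphate, had only 15 to 41 counts per library, and several gene models copy its sequence at over 90% identity, so its level is uncertain. Near-identical copies also exist for Idi1 (Gm13502, 684 bases, 100% identity, among others), Acat2 (Acat3, 1477 bases, 97.7%) and Ggps1 (Gm5630, 903 bases, 97.2%). Acat2 also shares 445 bases with Tcp1 on the opposite strand (98.7%).

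Of the 13 genes of sterol sensing and uptake, 7 were called higher with the block and none lower. Srebf2, which encodes SREBP2, went from 357 ± 43.8 to 516 ± 76.4 CPM, a log2 fold change of 0.53 (adjusted p = 3.83e-05, edgeR with the block). Insig1, which holds the SREBP complex in the endoplasmic reticulum, rose by 0.88 and Stard4, a cytosolic sterol carrier, by 0.91 on the log2 scale. Mylip, a ubiquitin ligase of lipoprotein uptake, rose by 0.64, Npc2, a lysosomal sterol carrier, by 0.52, and Srebf1 by 0.32. Without pair 1, neither Mylip (adjusted p = 0.0947, edgeR with the block) nor Srebf1 (0.232) was called. Scap and Mbtps1, which escort and cleave SREBP, had log2 fold changes of -0.04 and -0.12 with the block and did not pass.

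Fatty acid synthesis had 7 of 11 genes called higher with the block, with Fasn at 0.66 and Scd1 at 0.79 on the log2 scale, and Scd2 (0.46), Fads1 (0.52), Fads2 (0.61), Acly (0.34) and Acaca (0.32) beside them. The call of Acly was lost without pair 2 (adjusted p = 0.0717, edgeR with the block), and that of Acaca without pair 1 (0.0588) or pair 3 (0.144). Elovl5 and Elovl6, at 0.08 and 0.17, did not pass. Sterol use and efflux had 3 of 10 called higher. They were Abca1, the transporter that loads cholesterol onto lipoproteins, at 0.59, Apoe at 0.34 and Soat1 at 0.25, while Abcg1 and Cyp46a1, which makes 24-hydroxycholesterol, were at -0.09 and -0.03 with the block. Apoe was no longer called without pair 2 (0.22, adjusted p = 0.129, edgeR with the block), and without the block its log2 fold change became -0.038 when DMSO replicate 2 was left out and -0.094 when GSK-126 replicate 1 was. Soat1 was not called without pair 1 (adjusted p = 0.233, edgeR with the block) or pair 3 (0.251), or with DESeq2 and the block (0.0951). Over the 48 listed genes outside the 9, all of them tested, 27 were called higher and 0 lower with the block, and 0 without it, where 23 had an unadjusted p under 0.05. These lists were drawn up with results of these libraries known, so their counts are not independent evidence of a direction.

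Over the 6 libraries, each of the 9 enzymes correlated with the mean of the others at an r of 0.898 (Sc5d) to 0.98 (Msmo1), a description over libraries of both groups pooled. The 9 were chosen as higher with GSK-126, so a high r over both groups follows in large part from that choice. Of 12139 genes outside the 9 with a mean log2 CPM over 3, those most like the mean standardised profile of the 9 were Pus7 and Ebf3 (r = 0.998 each), Atp8b2, Idi1 and Insig1 (0.993 each), Elp6 (0.99), Gm48342 (0.982) and Hmgcs1 (0.981). Gm48342 shares 462 bases with Hmgcs1 on the opposite strand, so reads there cannot be assigned with certainty. Likeness of shape is no likeness of size, as Atp8b2 went from 95.8 ± 1.52 to 106 ± 1.14 CPM and Ebf3 from 6.31 ± 0.954 to 16.2 ± 2.38 CPM.

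Promoter windows, from 250 bases before to 50 bases after the RefSeq start (GRCm38.p6), were held for 7 of the 9 genes, and not for Fdft1 and Sqle. The motif CCAAT, the letters of the NF-Y box, occurred on either strand in 7 of the 7, against 42.5% of the 11625 tested genes with a window. GGGCGG, the letters of the SP1 box, also occurred in 7 of 7, against 66.4%. Nsdhl had 4 matches to CCAAT in its window, a number reached by 1.6% of the windows of tested genes, Msmo1 and Hsd17b7 had 3 each (3 or more in 4.5%), and Lss, Cyp51 and Sc5d had 1. Dhcr7 has 3 windows, of which 1 held 2 matches. A sterol response element, TCACNCCAC, had no exact match in the 7 genes, against 1.5% of tested genes with a match. With 1 mismatch allowed, a search added after the data were seen, it matched in 5 of 7, against 29.3%. No CCAAT match overlapped a GGGCGG match in these windows, and a match is a stretch of letters, not a bound site.

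The sequences before the start are shown for Nsdhl and Hsd17b7, enzymes of the C4 demethylation with 3 or more CCAAT matches in their windows, and for Sc5d, the member with the smallest difference and 1 match. CCAAT, or ATTGG where it lies on the other strand, is in capitals, and each stretch ends before the annotated gene begins.
Nsdhl (chrX:72918271-72918520, plus strand): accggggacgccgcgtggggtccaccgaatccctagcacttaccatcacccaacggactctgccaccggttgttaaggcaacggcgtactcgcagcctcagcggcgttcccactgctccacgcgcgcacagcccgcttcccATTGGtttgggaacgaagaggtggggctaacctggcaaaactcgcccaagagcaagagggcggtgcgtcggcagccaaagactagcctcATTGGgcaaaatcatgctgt
Hsd17b7 (chr1:169969242-169969455, minus strand): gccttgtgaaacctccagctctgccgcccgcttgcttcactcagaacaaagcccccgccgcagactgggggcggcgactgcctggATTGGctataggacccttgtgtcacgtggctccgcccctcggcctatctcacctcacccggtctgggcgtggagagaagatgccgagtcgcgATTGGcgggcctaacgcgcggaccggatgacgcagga
Sc5d (chr9:42264301-42264550, minus strand): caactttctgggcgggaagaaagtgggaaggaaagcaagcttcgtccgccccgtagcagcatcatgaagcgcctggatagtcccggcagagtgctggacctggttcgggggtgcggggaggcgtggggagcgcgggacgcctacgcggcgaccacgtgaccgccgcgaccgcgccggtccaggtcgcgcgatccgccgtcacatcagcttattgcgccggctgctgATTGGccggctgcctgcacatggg

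In the printed stretches, Nsdhl carries CCAAT at positions -109 and -20 from the RefSeq start, Hsd17b7 at -165 and -73, and Sc5d at -24. The remaining matches lie closer to or past the start, at 9 and 35 for Nsdhl and at -12 for Hsd17b7. By number of CCAAT matches in the window, the log2 fold changes were 0.96 for Nsdhl (4), 0.93 for Msmo1 and 0.58 for Hsd17b7 (3 each), 0.59 for Dhcr7 (2), and 0.72 for Lss, 0.69 for Cyp51 and 0.33 for Sc5d (1 each).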

How the data were processed

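RNA of CGN cultures was compared between 3 DMSO and 3 GSK-126 libraries. The authors trimmed 150 bp paired reads with Trimmomatic 0.38, aligned them to mm10 (GRCm38.p4) with STAR 2.7.2b and deposited HTSeq counts of reads on exons per gene (per the labels and the study's methods). The strand setting is not given in the sources used here. Lines that name no gene (58.7% to 60.7% of each table) were left out. Reads on no annotated feature alone made up 45.3% to 46.6%, and whether strand assignment had a part was not tested.

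Counts were fitted for all 16729 genes kept by filterByExpr with edgeR 4.0.16 in R 4.3.3 (TMM factors, quasi-likelihood test, Benjamini-Hochberg adjusted p under 0.05), without a block, as the labels' groups stand, and with the replicate number as a block. The pairing comes from the deviations given in the report, since the labels and methods do not state it. The biological coefficient of variation was 24% without and 9.74% with the block. DESeq2 1.42.0 was an alternative, and the fits were tested on simulated data. No library copied another (chi-square per degree of freedom 12 or more within groups). Precision includes the spread between the numbered cultures in the fit without the block, and leaves it out in the fit with the block. GENCODE M21, whose symbols match all 55341 rows, gave coordinates, lengths and overlaps, and blastn 2.17.0 the copies of at least 300 bases and 90% identity. Besides the overlaps named, Fdft1 and Sc5d resemble Gm6781 (1249 bases, 97.4% identity) and Gm31520 (307 bases, 91.9%).

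The 9 genes, the lists and the tests were chosen with earlier results of these data known. The genes named are the 9, the listed late sterol and mevalonate genes, of the other pathway lists those called with the block and the most abundant 2 of the rest, and the 8 most like the 9. Markers called are named beside their counts, a choice made after their values were seen. The results of 3 listed pathway genes are not reported here singly, though the counts of their lists include them.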

Additional observations from a re-analysis of the deposited data

How the results depend on the processing

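No result of the 9 enzymes changed sign, which the way they were chosen largely fixes. Their median log2 fold change, 0.69, was 0.57 without DMSO replicate 3 and up to 0.75 with another library left out, and 0.65 to 0.77 in block fits without a pair. Among single genes Sqle ranged from 0.40 to 0.62 and Cyp51 from 0.55 to 0.86, both ends set by leaving out a library, and Sc5d from 0.23 to 0.41. Calls over all genes depended on the fit. There were 0 without the block in edgeR (0 also with each library left out), 21 with DESeq2 (20 higher, 1 lower), 10 with no filter, 1412 with the replicate block, 1088, 833 and 1277 with the block and pair 1, 2 or 3 left out, and 987 with the block in DESeq2, a setting added after the data were seen. The other cholesterol pathway genes gave 0 calls, 10 with DESeq2, 4 with no filter, 27 with the replicate block, 23 with it and any pair left out, and 24 with it in DESeq2. Markers of other cell types gave 0 calls, 12 with the replicate block, 6 (without pair 2) to 12 with a pair left out and 10 with DESeq2 and the block. The cause of these differences was not tested. Genes differing between cultures numbered 5259, and 1727 when the group was left out of that fit. The block moved the log2 fold changes of the 9 by 0.01 at most. Ebp had 225 to 517 counts per library and Lbr 322 to 635. With 3 pairs, small differences such as theirs may lie below what these libraries can show.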
